A study of Mus musculus with 28 samples.

Results

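The clock genes Per1, Bhlhe40, Nr1d2, Clock and Dbp were followed in the brains of mice after a nicotine-induced seizure. They were taken as all probe sets on the array that the platform annotation pairs with 1 of these symbols and no other, which gave 5 of 8251 genes and 5 of 12488 probe sets, 1 for each gene (93619_at for Per1, 104701_at for Bhlhe40, 99076_at for Nr1d2, 92257_at for Clock and 160841_at for Dbp). All 5 passed the filter on weak signals that left 7350 probe sets. Whole-brain RNA of 28 C57BL/6J mice had been hybridised to Affymetrix U74Av2 arrays, 1 array for each mouse, and the values are linear signals that were tested as log2.

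Of the 12 seized mice, killed 1 hour after the seizure, 5 were alpha7+/T, 4 were beta4-/- and 3 were wild-type. Of the 16 untreated mice, 5 were alpha7+/T, 5 were beta4-/- and 6 were wild-type. The alpha7+/T mice are heterozygous for the L250T form of the alpha7 subunit of the nicotinic acetylcholine receptor, the ion channel that nicotine opens, and the beta4-/- mice lack its beta4 subunit. Nicotine was injected intraperitoneally at a dose that differed with genotype so that seizure scores were alike; the sources used here do not give the amounts. Dose and genotype therefore cannot be told apart among seized mice. Every seized mouse was injected and no mouse was injected without a seizure, so injection and seizure cannot be told apart either. Seized mice were 7 or 8 weeks old. Among untreated mice, 4 of 5 alpha7+/T, 1 of 5 beta4-/- and 3 of 6 wild-type animals were 6 weeks old and the others were 7 to 9 weeks old. Both sexes were in every group. The sources used here do not give the hour of the day at which the mice were killed, which matters for genes with a daily rhythm: a difference in hour between groups cannot be told apart from the difference in treatment or genotype.

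The mammalian clock is a loop of transcription and feedback. CLOCK pairs with BMAL1, the product of Arntl, and the pair switches on genes that carry E-boxes, among them the Per and Cry genes, whose proteins enter the nucleus and repress the pair. Bhlhe40, also named Dec1, encodes a basic helix-loop-helix repressor that competes for E-boxes. Nr1d2 encodes REV-ERB beta, a nuclear receptor without an activation function that represses Arntl in a second loop and competes with ROR factors for their DNA element. Dbp encodes a PAR bZIP activator that acts on D-box elements and is itself a strongly rhythmic target of CLOCK and BMAL1. Per1 is in addition an immediate early gene: in the brain, light, neuronal activity and glucocorticoids raise it within the hour, through CREB sites and glucocorticoid response elements in its promoter.

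The promoter windows of Per1 and Nr1d2 are shown because both genes were called higher after seizure in alpha7+/T mice. The windows are RefSeq sequence of build GRCm38.p6, from 250 bases before to 50 bases after an annotated start. Capitals mark matches to a searched motif on either strand. Both Per1 starts lie on the plus strand, start 1 at chr11:69098699-69098998 and start 2 at chr11:69099902-69100201, and Nr1d2 lies on the minus strand at chr14:18239057-18239356.
Per1 start 1: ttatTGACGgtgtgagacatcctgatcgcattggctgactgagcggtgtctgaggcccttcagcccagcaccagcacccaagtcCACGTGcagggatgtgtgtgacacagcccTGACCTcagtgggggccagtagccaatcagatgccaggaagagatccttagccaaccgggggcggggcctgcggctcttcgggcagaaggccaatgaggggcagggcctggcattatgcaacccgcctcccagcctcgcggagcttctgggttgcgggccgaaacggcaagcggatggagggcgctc
Per1 start 2: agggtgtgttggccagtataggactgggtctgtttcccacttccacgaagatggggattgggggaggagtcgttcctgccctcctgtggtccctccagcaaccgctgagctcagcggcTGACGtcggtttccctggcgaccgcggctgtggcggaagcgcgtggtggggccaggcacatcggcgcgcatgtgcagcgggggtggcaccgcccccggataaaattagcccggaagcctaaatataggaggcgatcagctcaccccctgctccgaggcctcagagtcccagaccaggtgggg
Nr1d2: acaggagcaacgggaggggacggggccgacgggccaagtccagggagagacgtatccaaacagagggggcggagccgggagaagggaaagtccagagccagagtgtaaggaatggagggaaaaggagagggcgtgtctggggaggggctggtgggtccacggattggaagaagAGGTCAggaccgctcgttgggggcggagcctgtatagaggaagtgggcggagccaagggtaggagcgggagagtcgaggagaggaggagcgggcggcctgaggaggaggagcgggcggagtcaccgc
The first window of Per1 holds an E-box, CACGTG, that begins 166 bases before the start, as well as TGACG, the first letters of the cAMP response element, at 246 bases and TGACCT, the reverse complement of the ROR element AGGTCA, at 137 bases before it. The second Per1 window holds TGACG 132 bases before its start, and the Nr1d2 window holds AGGTCA 77 bases before its start. Neither the whole cAMP response element TGACGTCA, which contains TGACG, nor the D-box TTANGTAA was found in these windows. Among 32851 promoter windows of the same length, 7.15% held CACGTG, 20.8% TGACG, 16.3% AGGTCA, 1.79% TGACGTCA and 2.32% TTANGTAA on either strand. The table had windows for Per1, Nr1d2, Clock and Dbp (4 of the 5 genes, 7 windows) and not for Bhlhe40. In the others, the window of Dbp held none of these letters, and of 3 windows of Clock 1 held TGACCT.

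The arrays differed in quality. In 9 of them the log2 ratio of the Gapdh control signal at the 3 prime end to that at the 5 prime end was between -0.48 and 0.096 (low-ratio arrays), and in the other 19 it was between 1.13 and 2.57 (high-ratio arrays). The low-ratio arrays came from 3 seized and 2 untreated alpha7+/T mice and 2 seized and 2 untreated beta4-/- mice, and all wild-type arrays were high-ratio ones. With group in the model, Per1 was 0.71 ± 0.19 (SE) higher in log2 on low-ratio than on high-ratio arrays (limma adjusted p = 0.0022), as 52.1% of probe sets differed by class. The class difference did not pass for the other 4 genes, of which Nr1d2 had the smallest p (0.24 ± 0.12, limma adjusted p = 0.085). All 5 neuronal and all 4 measured astrocyte markers had mean signals above the array median. Of 11 lists of cell type and region markers, each gene given by its brightest probe set, none had a member that passed in the average over genotypes. In alpha7+/T mice the endothelial markers, of which 5 of 5 were measured, summed to 388 to 603 after seizure, against 604 to 960 without treatment, and 1 of them, Cldn5, fell (log2 change -1.26, limma adjusted p = 0.018). In untreated wild-type mice they summed to 426 to 703. Between untreated alpha7+/T and wild-type mice 1 neuronal marker, Syp (1.14, limma adjusted p = 0.046), and 1 oligodendrocyte marker, Mag (1.53, limma adjusted p = 0.029), were higher in alpha7+/T mice. Less bright probe sets passed too in this contrast. They were those of Stmn2 of neurons (-0.54, limma adjusted p = 0.030) and Gfap of astrocytes (0.75, limma adjusted p = 0.045). The part of these markers in the clock gene results was not tested. Pituitary markers (Gh, Prl, Pomc and Cga) summed to a signal of 11136 in seized alpha7+/T mouse 2 and to at most 461 in the others; no call in alpha7+/T mice was lost without that mouse. Clock gene results are in a whole organ, so fewer cells with a transcript and less of it per cell cannot be told apart.

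Per1, which encodes a repressor of the feedback loop, was higher after seizure and was the clock gene with the clearest change. Its signal was 329, 292, 213, 168 and 194 in the 5 seized alpha7+/T mice, against 94.3, 25.6, 123, 198 and 78.6 in untreated ones. In beta4-/- mice it was 274, 232, 169 and 207 after seizure, against 170, 167, 168, 123 and 119 without treatment. In wild-type mice it was 251, 183 and 224 after seizure, against 142, 126, 117, 115, 139 and 178 without treatment. Each of the 12 seized mice lay above the mean of its untreated genotype, and 9 lay above the highest untreated mouse of that genotype: 3 of 5 alpha7+/T, 3 of 4 beta4-/- and 3 of 3 wild-type mice. The wild-type groups did not overlap, while the other genotypes overlapped through 1 beta4-/- and 2 alpha7+/T seized mice. The share of all probe sets that separate such groups without overlap is not given, here or for the other genes.

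The change of Per1, averaged over the genotypes with equal weights, was 0.90 ± 0.19 (SE, log2; 1.86-fold; n = 12 against 16), and it passed (limma adjusted p = 0.029). It was the only 1 of the 5 genes to do so in a contrast in which 0.327% of all probe sets were called higher, and it stood 23rd of 7350 by p. By genotype it was 1.43 ± 0.32 in alpha7+/T (2.70-fold; limma adjusted p = 0.015), 0.56 ± 0.34 in beta4-/- and 0.69 ± 0.36 in wild-type mice, and the last 2 did not pass (limma adjusted p = 1.00 each). An exact permutation test within each genotype, two-sided and not adjusted for the 40 such tests run, gave p = 0.024 for alpha7+/T, 0.016 for beta4-/- and 0.012 for wild-type mice, where 0.012 is the smallest p that 3 against 6 mice allow. Per1 in untreated alpha7+/T mouse 2, at 25.6, was the lowest value of all 28 and was below its array's median signal. Without that mouse the alpha7+/T change was 1.00 and still passed. The average was not called in 8 of the 28 cases with 1 mouse left out, in which mouse 4 of the untreated wild-type, mouse 1 or 3 of the seized wild-type, mouse 1 of the seized alpha7+/T, mouse 4 or 5 of the untreated beta4-/- and mouse 1 or 2 of the seized beta4-/- mice was missing, with changes of 0.85 to 0.89.

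Within the array classes the Per1 change kept its sign. On high-ratio arrays the average over genotypes was 0.94 (limma adjusted p = 0.076), with 7 seized and 12 untreated mice. In alpha7+/T mice it was 1.65 on high-ratio arrays (limma adjusted p = 0.057) and 0.81 on low-ratio arrays (limma adjusted p = 0.053).

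**Figure D1:**
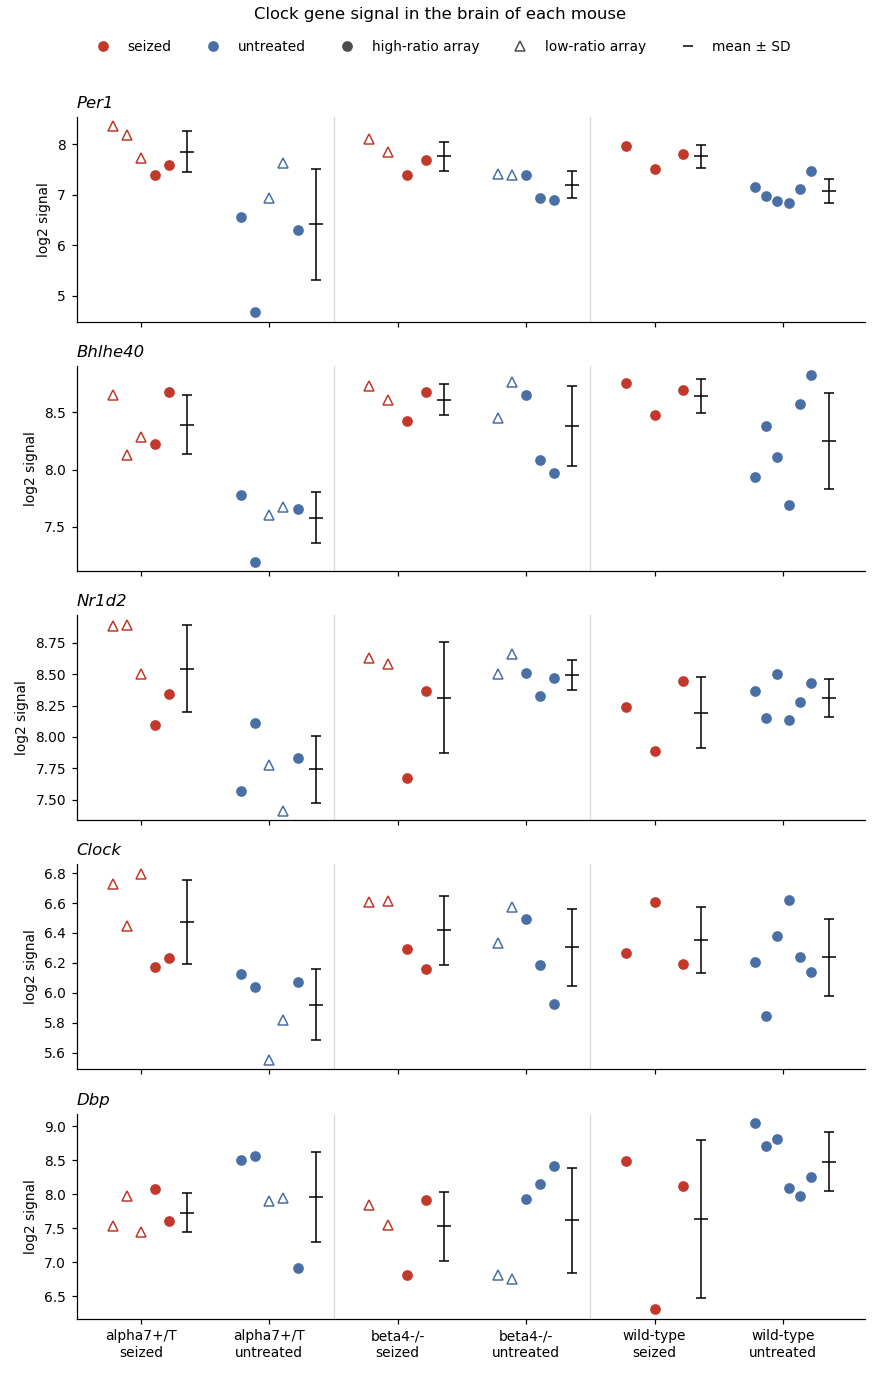
Log2 signal of each clock gene (vertical axes) in each of the 28 mice by group (horizontal axis), with seized mice in red, untreated mice in blue, filled circles for high-ratio and open triangles for low-ratio arrays, and bars for mean ± SD. Seized mice lie high for Per1 in all 3 genotypes, untreated alpha7+/T mice lie low for Bhlhe40 and Nr1d2, and Dbp spreads widely within groups.

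Bhlhe40, which encodes the E-box repressor, was called in alpha7+/T mice. Its signal was 403, 279, 312, 299.6 and 409.7 in seized alpha7+/T mice, against 219.5, 146, 194, 204 and 201 in untreated ones. The groups did not overlap: the lowest seized alpha7+/T mouse was above the highest untreated one. Here too the share of all probe sets without overlap is not given. In beta4-/- mice it was 426, 391, 344 and 410.2 after seizure, against 350.1, 436, 403, 271 and 250.3 without treatment. In wild-type mice it was 432, 356 and 416 after seizure, against 245, 333, 277, 206, 381 and 454 without treatment. In both of these genotypes the seized mice lay within the range of the untreated ones, although each lay above their mean.

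The change of Bhlhe40 in alpha7+/T mice was 0.81 ± 0.19 (SE, log2; 1.76-fold; limma adjusted p = 0.018). It was 0.23 ± 0.20 in beta4-/- and 0.39 ± 0.21 in wild-type mice, neither of which passed. The average over genotypes, 0.48 ± 0.11, missed the threshold (limma adjusted p = 0.058). With array class as a covariate the average was 0.46 and passed (limma adjusted p = 0.039), as it did in 5 of the 28 cases with 1 mouse left out. The alpha7+/T change was not called without untreated alpha7+/T mouse 2, where it was 0.72 (limma adjusted p = 0.059).

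Nr1d2, which encodes REV-ERB beta, was called in alpha7+/T mice as well and in no other genotype. Its signal was 471, 476, 362, 273 and 325 in seized alpha7+/T mice, against 191, 276, 219, 170.4 and 229 in untreated ones. In 4 of 5 seized alpha7+/T mice it was above every untreated one. In beta4-/- mice it was 395, 382, 204 and 331 after seizure, against 363, 404, 364, 321 and 354 without treatment. In wild-type mice it was 302, 237 and 349 after seizure, against 330.1, 285, 363, 281, 311 and 345 without treatment. Neither of these genotypes had a seized mouse above its highest untreated one, and each had 1 below the lowest.

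The change of Nr1d2 was 0.80 ± 0.17 in alpha7+/T (SE, log2; 1.74-fold; limma adjusted p = 0.012), -0.18 ± 0.19 in beta4-/- and -0.12 ± 0.20 in wild-type mice, and 0.17 ± 0.11 on average. The change in alpha7+/T minus that in beta4-/- mice was 0.98 ± 0.25 (95% interval 0.46 to 1.5; limma adjusted p = 0.16), and minus that in wild-type mice 0.92 ± 0.26 (0.38 to 1.46; limma adjusted p = 0.38). The difference between genotypes therefore did not pass, nor did the F test over the 3 genotypes for any of the 5 genes, where 0.0272% of all probe sets were called. At an unadjusted p under 0.05 it counted 1 of the 5 (Nr1d2), against 7.66% of all probe sets. When array class was a covariate, the difference between alpha7+/T and beta4-/- mice was 0.96 and passed (limma adjusted p = 0.038). This was the only 1 of 16 settings in which it passed. With the wild-type mice left out as well, a setting added after the data were seen, the adjusted limma p was 0.077, with class and age as covariates 0.13 and on high-ratio arrays 0.50, and it passed in 0 of 28 cases with 1 mouse left out.

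Array class moved with the Nr1d2 values. The 3 seized alpha7+/T mice on low-ratio arrays had signals of 362 to 476 and the other 2, on high-ratio arrays, 273 and 325. Untreated alpha7+/T mice had 170.4 to 219 on low-ratio and 191 to 276 on high-ratio arrays. On high-ratio arrays alone the alpha7+/T change was 0.38 (limma adjusted p = 0.36), and on low-ratio arrays alone it was 1.16 (limma adjusted p = 0.0040). With array class as a covariate over all mice it was 0.75 (limma adjusted p = 0.0035).

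In all, 3 of the 5 genes were called higher in seized alpha7+/T mice, in a contrast in which 1.71% of all probe sets were called higher. None of the 5 was called in beta4-/- mice, where 0.0136% of probe sets were called higher, nor in wild-type mice, where 0.0544% were. At an unadjusted p under 0.05 the limma counts were 4 of 5 in alpha7+/T, 0 in beta4-/- and 0 in wild-type mice, against 18.4%, 1.74% and 4.24% of all probe sets in the same order of genotypes. The ages of alpha7+/T mice differed between treatments. With age as a covariate the alpha7+/T changes were 1.53 for Per1, 0.87 for Bhlhe40 and 0.85 for Nr1d2, and none passed (limma adjusted p = 0.13, 0.14 and 0.12). With both age and array class as covariates they were 1.35, 0.84 and 0.79, and all 3 passed (limma adjusted p = 0.027, 0.047 and 0.038).

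**Figure D2:**
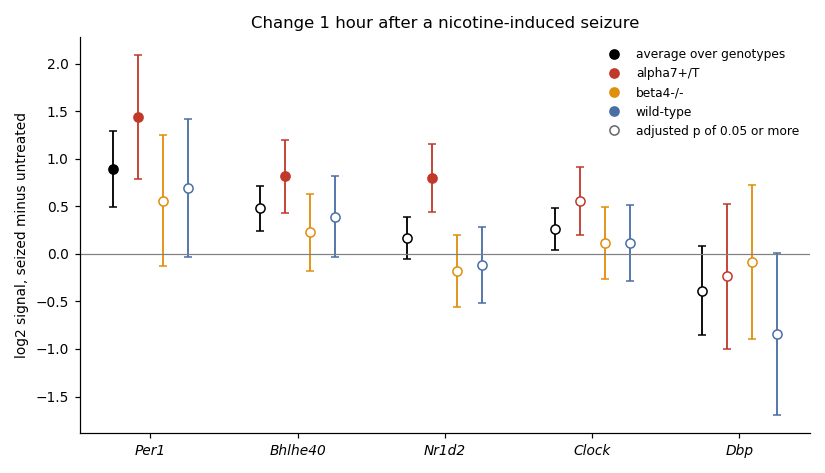
Log2 change of each gene, seized minus untreated mice (vertical axis), averaged over genotypes and in each genotype, with 95% confidence intervals from the limma fit and filled points where the adjusted p was under 0.05. Filled points are Per1 on average and Per1, Bhlhe40 and Nr1d2 in alpha7+/T mice, and every interval of Dbp spans 0.

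Clock, which encodes the activator that pairs with BMAL1, had weaker signals, at a median of the 58.6th percentile of its array. It was 106, 87.4, 111, 72.2 and 75.0 in seized alpha7+/T mice, against 69.9, 65.7, 46.8, 56.5 and 67.2 in untreated ones, and these groups did not overlap. It was 97.6, 97.9, 78.2 and 71.5 in seized beta4-/- mice, against 80.8, 95.1, 90.1, 72.8 and 60.8 in untreated ones. It was 76.9, 97.3 and 73.2 in seized wild-type mice, against 73.8, 57.5, 83.2, 98.4, 75.6 and 70.5 in untreated ones. The beta4-/- and wild-type groups overlapped broadly. The change in alpha7+/T mice was 0.55 ± 0.17 (SE, log2; limma adjusted p = 0.074), while it was 0.11 ± 0.18 in beta4-/- and 0.12 ± 0.20 in wild-type mice. The average was 0.26 ± 0.11 (limma adjusted p = 0.50). The 3 highest seized alpha7+/T values, 87.4 to 111, were on low-ratio arrays. The alpha7+/T change was 0.12 on high-ratio arrays (limma adjusted p = 0.82), 0.97 on low-ratio arrays (limma adjusted p = 0.021) and 0.52 with array class as a covariate (limma adjusted p = 0.042).

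Dbp, the rhythmic output gene, had the largest SD of log2 signal of the 5 genes within each beta4-/- and wild-type group. In alpha7+/T mice Per1 had the largest, 1.10 untreated and 0.41 seized, against 0.66 and 0.29 for Dbp. The signal of Dbp was 184, 252, 174, 271 and 194 in seized alpha7+/T mice, against 361, 376, 239, 247 and 120.1 in untreated ones. It was 228, 187, 112 and 241 in seized beta4-/- mice, against 113, 108, 244, 283 and 342 in untreated ones. It was 359, 79.1 and 277 in seized wild-type mice, against 528, 419.6, 449, 272, 250.3 and 304 in untreated ones. The lowest and highest values of all 28 mice, 79.1 and 528, were both in wild-type animals. No seized mouse exceeded the highest untreated mouse of its genotype, and 1 fell below the lowest. The change averaged -0.39 ± 0.23 (SE, log2; limma adjusted p = 0.67), and it was -0.24 ± 0.37 in alpha7+/T, -0.09 ± 0.39 in beta4-/- and -0.84 ± 0.42 in wild-type mice, none of which passed. Without seized wild-type mouse 2, which had 79.1, the wild-type change was -0.18 and the average -0.17. The SD of log2 signal reached 1.17 in seized wild-type and 0.78 in untreated beta4-/- mice, so the 95% interval of the average, -0.86 to 0.079, still holds changes in either direction.

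The Dbp values by age did not run one way in all genotypes. Untreated wild-type mice of 6 weeks had signals of 419.6 to 528, against 250.3 to 304 in those of 7 weeks or older. Untreated alpha7+/T mice of 6 weeks had 239 to 376, and the single older one had 120.1. In untreated beta4-/- mice the order was the opposite, since the single 6-week mouse had 113 and the 4 older ones 108 to 342. The slope over all mice with group in the model was -0.33 ± 0.13 per week (SE, log2; limma adjusted p = 0.88) and did not pass. Without the 6-week mice the average change was 0.022, of opposite sign to that over all mice, and the part of age in the Dbp values was not tested further.

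Without treatment, Bhlhe40 and Nr1d2 were called lower in alpha7+/T than in wild-type mice over all arrays, and neither was called on high-ratio arrays alone, with title prefix as a covariate, from 7 weeks of age or among 6-week LT mice. Bhlhe40 in untreated alpha7+/T mice differed from that in untreated wild-type mice by -0.67 ± 0.18 (SE, log2; 0.627 of the wild-type level; limma adjusted p = 0.020), and Nr1d2 differed by -0.57 ± 0.17 (0.674 of the wild-type level; limma adjusted p = 0.028). These 2 of 5 genes were called in a contrast in which 8.29% of all probe sets were called lower. At an unadjusted limma p under 0.05 it counted 3 of the 5, against 35.1% of all probe sets in either direction. All 5 untreated alpha7+/T mice had less Nr1d2 signal than any of the 6 untreated wild-type mice, 170.4 to 276 against 281 to 363. The share of all probe sets that separate these groups without overlap is not given. For Bhlhe40 the ranges were 146 to 219.5 and 206 to 454, and they overlapped through 1 mouse on each side. The exact permutation test gave p = 0.0022 for Nr1d2, the smallest that 5 against 6 mice allow, and 0.011 for Bhlhe40 (two-sided, not adjusted).

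The differences of Per1 (-0.65 ± 0.30, limma adjusted p = 0.13), Clock (-0.32 ± 0.17, limma adjusted p = 0.17) and Dbp (-0.52 ± 0.36, limma adjusted p = 0.30) were negative too and did not pass. Without untreated alpha7+/T mouse 2 the Per1 difference was -0.21. Array class, age and title prefix moved with this contrast. Of the arrays, 2 of 5 from alpha7+/T mice and none from wild-type mice were low-ratio. Of the mice, 4 of 5 alpha7+/T and 3 of 6 wild-type were 6 weeks old. All alpha7+/T but only 3 wild-type mice had the LT prefix in their titles. Between the 4 alpha7+/T and 3 wild-type mice that were 6 weeks old and had this prefix, the difference was -0.58 for Bhlhe40, with an exact permutation p = 0.029, the smallest that 4 against 3 mice allow, and -0.62 for Nr1d2 (exact permutation p = 0.057). No limma call held in that subset, on high-ratio arrays alone or with title prefix as a covariate, where the differences lay between -0.71 and -0.47. Scaling moved the contrast as a whole: the median log2 difference of all probe sets was 0.063 as deposited and -0.18 after each array was centred on its median, and after that centring 4 of the 5 genes were called.

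The low untreated level is also the reference of the seizure change in alpha7+/T mice, so these contrasts share the 5 untreated alpha7+/T mice and are not independent. After seizure, the alpha7+/T mice differed from wild-type mice by 0.091 ± 0.37 for Per1, -0.25 ± 0.21 for Bhlhe40, 0.35 ± 0.20 for Nr1d2, 0.12 ± 0.20 for Clock and 0.089 ± 0.43 for Dbp (log2, SE). None of these passed (lowest limma adjusted p = 0.45), in a contrast in which 0% of probe sets were called lower and in which no gene of the 5 had an unadjusted p under 0.05. Seized beta4-/- mice did not differ from seized wild-type mice by the same test in any of the 5 genes (0 called and 0 with an unadjusted limma p under 0.05; 0.0136% of probe sets were called lower). Untreated beta4-/- mice had 0 of 5 genes called against untreated wild-type mice, where again 0.0136% of probe sets were called lower. Only Dbp had an unadjusted p under 0.05 there, with a difference of -0.86 ± 0.36 (limma adjusted p = 0.37), and 2 of the 5 untreated beta4-/- mice, both on low-ratio arrays, had the lowest untreated Dbp signals, 113 and 108.

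Across the 6 groups, Per1 stood highest in seized alpha7+/T mice (mean log2 signal 7.86 ± 0.41, SD), followed by seized wild-type (7.76 ± 0.23), seized beta4-/- (7.76 ± 0.29), untreated beta4-/- (7.20 ± 0.27), untreated wild-type (7.07 ± 0.23) and untreated alpha7+/T mice (6.42 ± 1.10). In that order the only gap between neighbours that exceeded the larger of their SDs was between seized and untreated beta4-/- mice. For Bhlhe40 the order ran from seized wild-type (8.64 ± 0.15) through seized beta4-/- (8.61 ± 0.13), seized alpha7+/T (8.39 ± 0.26), untreated beta4-/- (8.38 ± 0.35) and untreated wild-type (8.25 ± 0.42) to untreated alpha7+/T mice (7.58 ± 0.23), and the last gap alone exceeded the SD. For Nr1d2 it ran from seized alpha7+/T (8.54 ± 0.35) through untreated beta4-/- (8.49 ± 0.12), untreated wild-type (8.31 ± 0.15), seized beta4-/- (8.31 ± 0.44) and seized wild-type (8.19 ± 0.28) to untreated alpha7+/T mice (7.74 ± 0.27). Here the gaps after untreated beta4-/- and after seized wild-type mice exceeded the SD. For Clock only untreated alpha7+/T mice (5.92 ± 0.24) stood apart from their neighbour, untreated wild-type mice (6.24 ± 0.26), and for Dbp no neighbours did.

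Per1 and Bhlhe40 were correlated across mice when the genotypes were pooled. On high-ratio arrays, where the class does not vary, Pearson's r was 0.873 in 7 seized mice (exact permutation p = 0.011, adjusted p = 0.043 over 8 relations) and Spearman's rho was 1 (exact permutation p = 0.000397, the smallest that 7 mice allow, adjusted p = 0.0017). In 12 untreated mice r was 0.824 (permutation p = 4e-05, adjusted p = 0.00032) and rho was 0.867 (permutation p = 0.00042, adjusted p = 0.0017). Without the 2 mice farthest from the median of Per1, r was 0.9 over 5 seized and 0.831 over 10 untreated mice. Seized and untreated mice both mix the 3 genotypes, and the permutations moved mice across genotypes. These p-values therefore do not separate differences between genotypes from variation among mice of 1 genotype. The untreated mice hold 3 alpha7+/T animals that were low in both genes. In the 6 untreated wild-type mice alone r was 0.748 (exact permutation p = 0.078) and rho 0.657 (exact permutation p = 0.18), which did not pass.

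Over all mice of each set, the other genes had lower r with Per1 than Bhlhe40 had. Nr1d2 and Per1 had r of 0.67 in seized (exact permutation p = 0.10, adjusted p = 0.22) and 0.441 in untreated mice (permutation p = 0.14, adjusted p = 0.22), with rho of 0.678 in untreated mice (permutation p = 0.019, adjusted p = 0.0498). Dbp and Per1 had r of 0.624 in seized (exact permutation p = 0.14, adjusted p = 0.22) and 0.021 in untreated mice (permutation p = 0.94, adjusted p = 0.94). Clock and Per1 had r of -0.206 in seized (exact permutation p = 0.69, adjusted p = 0.79) and 0.286 in untreated mice (permutation p = 0.36, adjusted p = 0.48). Of these only the rho of Nr1d2 in untreated mice was under 0.05 after adjustment, and narrowly. Without the 2 mice farthest from the median of Per1, the order in seized mice changed. There r over 5 mice was 0.928 for Nr1d2, 0.846 for Dbp and -0.519 for Clock, against 0.9 for Bhlhe40. Over 10 untreated mice it was 0.674, -0.269 and 0.127, against 0.831 for Bhlhe40.

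**Figure D3:**
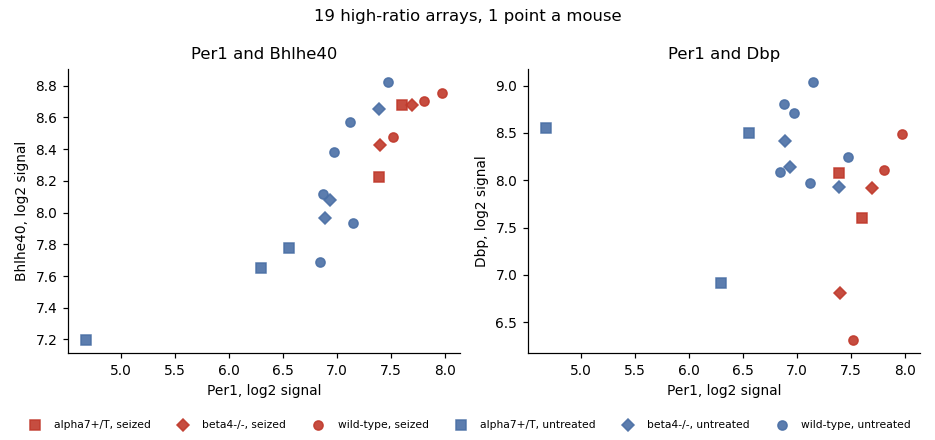
Log2 signal of Bhlhe40 (left) and Dbp (right) against that of Per1 in the 19 mice with high-ratio arrays, 1 point for each mouse, red for seized and blue for untreated, with the marker giving the genotype. With genotypes pooled, Bhlhe40 rises with Per1 within seized mice (r of 0.873) and within untreated mice (r of 0.824), while Dbp and Per1 in untreated mice have r of 0.021.

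Genes with the pattern most like that of Per1 were ranked by Pearson's r over all 28 mice, after the mean of each array class was taken out, among 6660 probe sets with 1 gene. Txnip (0.834), which encodes the thioredoxin-binding arrestin protein TXNIP, Rgs2 (0.812), a regulator of G protein signalling, Nop56 (0.790) and Cdh13 (0.781), a cadherin, came first, and Bhlhe40 was the fifth (0.779). Without untreated alpha7+/T mouse 2 the same values were 0.614 for Txnip, 0.795 for Rgs2, 0.540 for Nop56, 0.435 for Cdh13 and 0.728 for Bhlhe40. That 1 mouse therefore set much of the likeness of Txnip, Nop56 and Cdh13, and less of that of Rgs2 and Bhlhe40. Over all 28 mice Fos, an immediate early gene, had 0.567 (rank 236) and Sgk1, a kinase induced by glucocorticoids, 0.652 (rank 65). Without untreated alpha7+/T mouse 2 these values rose to 0.682 for Fos and 0.792 for Sgk1. That of Sgk1 was then near that of Rgs2 (0.795) and above that of Bhlhe40 (0.728). The ranks of Fos and Sgk1 over all 28 mice therefore depend on that mouse too. Over all 28 mice Nr1d2 had 0.340 (rank 1183), Clock 0.371 and Dbp -0.12. Genes most like Bhlhe40 were Adipor2 (0.828), an adiponectin receptor, Rnf13 (0.827) and Usp33 (0.818), with Per1 at rank 8, and those most like Nr1d2 were Smad1 (0.845), Capn7 (0.824) and 4931406C07Rik (0.822), with Bhlhe40 at 0.531.

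Fos and Sgk1 rose after seizure on average, as Per1 did. Averaged over genotypes, Fos changed by 1.99 ± 0.22 (SE, log2; limma adjusted p = 5.19e-06) and Sgk1 by 1.05 ± 0.18 (limma adjusted p = 0.0023), against 0.90 ± 0.19 for Per1. By genotype both passed in alpha7+/T mice (2.48 for Fos and 1.62 for Sgk1). Neither passed in beta4-/- (1.65 and 0.80) or wild-type mice (1.82 and 0.74). In untreated alpha7+/T mice both were lower than in untreated wild-type mice, Fos by a log2 difference of -1.05 ± 0.35 (limma adjusted p = 0.040) and Sgk1 by -1.12 ± 0.29 (limma adjusted p = 0.018), in the contrast in which Per1 did not pass and 8.29% of all probe sets were called lower. These calls of Fos and Sgk1 were not run under the alternatives that ended those of Bhlhe40 and Nr1d2.

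The wider clock pathway was read from a list of 33 genes, of which 23 had a probe set that passed the filter, the 5 included. Averaged over genotypes 1 of the 23, Per1, rose and none fell, against 0.393% and 0.0893% of all 5599 genes, and the median log2 change was 0.047, against 0.0081 over all 5599 genes. Without the 5 genes described first, the median of the other 18 was 0.0049. Among the other 18 genes the nearest to a change were Avp, the vasopressin gene of the suprachiasmatic and other hypothalamic neurons (-0.80, limma adjusted p = 0.24), and Rasd1, a small G protein of the clock centre (0.40, limma adjusted p = 0.35). In the activating arm Arntl changed by 0.047 (limma adjusted p = 0.96), and of the antagonists of D-box activators Nfil3 changed by 0.34 (limma adjusted p = 0.51). The other Nfil3 probe set, of nearly the same brightness, had the opposite sign (-0.133, limma adjusted p = 0.946).

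In alpha7+/T mice 3 of the 23 rose and none fell, against 1.86% and 1.13% of all genes, and the median was 0.0996, against 0.0093 over all genes. The median of the other 18 alone was 0.058. None of the 18 other genes passed. Per2, the partner repressor of Per1, was nearest (0.78, limma adjusted p = 0.063), and Nr1d1, which encodes REV-ERB alpha, stood at 0.61 (limma adjusted p = 0.36). The Per2 change had the opposite sign in beta4-/- (-0.75) and wild-type mice (-0.20), where it did not pass. In beta4-/- and wild-type mice 0 of 23 passed in either direction, with medians of -0.087 and -0.0047 (-0.13 and -0.022 over the other 18 alone).

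In untreated alpha7+/T mice against untreated wild-type mice, 3 of the 23 were lower and 2 higher, against 8.88% and 7.79% of all genes, and the median was -0.19, against 0.040 over all genes. The share that was higher is near that of all genes. Among the other 18 genes alone 1 was called lower and 2 higher, the median was 0.090, and 9 of them were above 0. The count of 3 lower genes therefore rests mostly on Bhlhe40 and Nr1d2, which were chosen with earlier results of these data known. Beside Bhlhe40 and Nr1d2 the third gene called lower was Per2 (-0.85, limma adjusted p = 0.019). The 2 that were higher were Btrc, a ubiquitin ligase subunit that marks PER proteins for degradation (0.99, limma adjusted p = 0.012), and Csnk1d, the casein kinase that phosphorylates them (0.53, limma adjusted p = 0.032), in a contrast in which 7.73% of probe sets were called higher. The other Csnk1d probe sets kept by the filter differed by -0.52, 0.99 and 0.080 and were not called (limma adjusted p = 0.25, 0.10 and 0.93). The other Btrc probe set was called higher (0.90, limma adjusted p = 0.025). Nr1d1 stood at -0.84 (limma adjusted p = 0.076). The calls of Per2, Btrc and Csnk1d were not run under the alternatives that ended those of Bhlhe40 and Nr1d2.

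**Figure D4:**
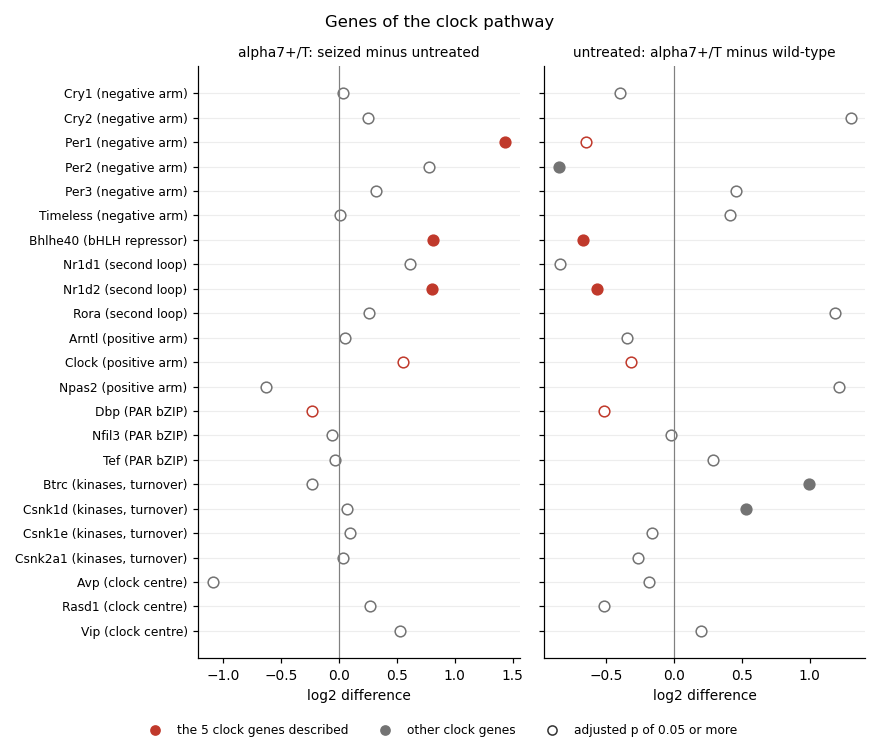
Log2 differences (horizontal axes) of the 23 clock pathway genes (rows, with the role of each), seized minus untreated in alpha7+/T mice on the left and alpha7+/T minus wild-type in untreated mice on the right, with red for the 5 genes described first and filled points where the limma adjusted p was under 0.05. Both panels use the same 5 untreated alpha7+/T mice. Per1, Bhlhe40 and Nr1d2 are filled on the left, and Bhlhe40, Nr1d2, Per2, Btrc and Csnk1d on the right.

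Sex did not pass for any of the 5 genes. Nr1d2 came nearest, at 0.30 ± 0.093 (SE, log2) for males minus females with group in the model (limma adjusted p = 0.23).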

How the data were processed

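Per the submitters' processing notes, the authors made the deposited linear signal intensities with MAS5, whose version the sources used here do not state. The mean signal of every array with 2% left out at each end was 150, so the authors had scaled the arrays alike, and log2 of the deposited values was used unchanged. Array medians ran from 43.6 to 61.1, rank correlations within groups from 0.907 to 0.972, and no arrays were identical. No detection call was used, so weak signals have no known background, and precision is limited by the number of arrays. The labels give each sample as 1 mouse.

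The 66 control probe sets were left out, and a probe set was kept when it exceeded its array's median in at least 3 arrays. Differences were fitted with limma (version 3.58.1, R 4.3.3; lmFit, eBayes with a variance trend) as 6 group means over 28 arrays, and Benjamini-Hochberg adjustment ran over all 7350 probe sets, two-sided, with calls below 0.05. The fit was tested on simulated data. Exact permutation tests used differences of mean log2 signal, within genotypes for the average. Array class was a log2 Gapdh ratio below 0.5. A gene is given by its brightest probe set. Genes likest a pattern and pathway genes nearest to a call were named by rank, Fos and Sgk1 for comparison. The members, the clock and marker lists and the tests were chosen with earlier results of these data known. Alternatives were other normalizations, filters, floors and variance models, array weights, class, sex, age and title prefix as covariates, array and age subsets, and each mouse left out.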

Additional observations from a re-analysis of the deposited data

How the results depend on the processing

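Values are log2 changes, and adjusted p-values are limma's. On high-ratio arrays the average change was 0.939 for Per1 (not called) and -0.0512 for Nr1d2 (turned), and with age as a covariate it was 0.936 for Per1 (not called). Bhlhe40 was called with array weights (0.501) and array class as a covariate (0.465), and Clock with array weights (0.355). The exact permutation tests of the average (0.478 for Bhlhe40 and 0.261 for Clock) gave p below 0.05 before any adjustment for the 40 such tests, which is no call. For mice of 7 weeks or older the average of Dbp was 0.0216 (turned). The number of the 5 genes called on average was 1, but 3 with array weights, 2 with array class, 0 on high-ratio arrays and 0 with age.

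In alpha7+/T mice the calls were lost on high-ratio arrays (Per1 1.65, Bhlhe40 0.911, Nr1d2 0.38), with age in the model (1.53, 0.868, 0.847), without the 6-week mice, which leaves 1 untreated alpha7+/T mouse that is assumed to vary like the others (1.56, 0.743, 0.706), and with the compared groups fitted alone (1.43, 0.815, 0.801), leaving 0 of 5 called in each; Per1 was also not called on low-ratio arrays (0.811), nor Bhlhe40 with array weights (0.798). Dbp turned with age (0.287), with age and class (0.383) and in mice of 7 weeks or older (0.816). In beta4-/- mice Nr1d2 turned with array weights (0.0509) and on low-ratio arrays (0.0228), and Dbp on low-ratio arrays (0.907) and with age and class (0.00301).

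For untreated alpha7+/T against wild-type mice, calls were lost on high-ratio arrays (Bhlhe40 -0.712, Nr1d2 -0.472), with title prefix (-0.624, -0.602), from 7 weeks (-0.711, -0.445) and among 6-week LT mice (-0.582, -0.624), with 0 of 5 called in each; with the groups fitted alone Bhlhe40 was lost (-0.673) and 1 was called, and with median centring 4 were called.

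With 1 mouse left out, the average ranged from 0.75 to 0.996 for Per1 and from 0.44 to 0.516 for Bhlhe40, with 0 to 2 genes called. Bhlhe40 in alpha7+/T mice ranged from 0.718 to 0.882, Nr1d2 and Dbp in beta4-/- mice from -0.286 to 0.0327 and from -0.302 to 0.153, and Nr1d2 and Clock in wild-type mice from -0.247 to 0.0325 and from -0.00977 to 0.195. Against untreated wild-type mice, untreated alpha7+/T mice had Bhlhe40 of -0.786 to -0.559 (lost without alpha7+/T mouse 3 or 4) and Nr1d2 of -0.662 to -0.488 (lost without wild-type mouse 3 or 6 or alpha7+/T mouse 3 or 4), with 0 to 2 genes called. In alpha7+/T mice Per1 (0.999 to 1.74) and Nr1d2 (0.712 to 0.913) were called in 28 of 28 such cases. Low-ratio arrays give no average or wild-type value, since none is wild-type. The cause of these changes was not tested. Array class, age, dose and title prefix are unbalanced over genotype, and with 3 to 6 mice a group a missed threshold does not show that values did not differ. No paired analysis was possible because the labels give the groups no shared replicate numbers.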
